A study of Mus musculus with 2 samples.

Results

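The Mir219 and Mir338 loci are 5 microRNA (miRNA) genes at 3 places in the mouse genome, out of 2202 miRNA genes counted. They were chosen by name: the genes that GENCODE M21 calls Mir219a-1, Mir219a-2, Mir219b, Mir338 and Mir3065. All 5 were found in both libraries' tables. Mir338 (mean 2161 reads per 1000000 reads counted at miRNA genes) and Mir219a-2 (2057) were abundant. Mir219a-1 had 23 and 32 reads, and the genes on the opposite strand, Mir219b and Mir3065, had 0 to 3. The libraries hold RNA fragments under 30 nucleotides from cerebral cortex (left side) of B6CASTF1/J males, an F1 cross of C57BL/6J and CAST/EiJ, at an age of 2 months. No treatment is named. There is 1 group of 2 libraries, library 1 from the animal numbered 3 and library 2 from the animal numbered 4, so no conditions can be compared. A single donor identifier covers both in the labels, so the spread between the libraries may be technical only. The p-values of the exact binomial and Fisher's tests below allow for counting error only and do not measure that spread.

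A miRNA is cut from a folded precursor, the hairpin, and its 5p or 3p arm, the mature miRNA, then guides a silencing complex to messenger RNAs that pair with its seed, bases 2 to 8. miR-219 and miR-338 are best known from oligodendrocytes, the cells that make myelin in the brain. They rise as precursor cells stop dividing and differentiate, and they repress factors that keep precursors immature, among them Sox6, Hes5 and the PDGF receptor Pdgfra. Cortex RNA mixes all cell types, so fewer oligodendrocytes and less of these miRNAs per cell cannot be told apart here.

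The sequences show which reads each gene can be given. RefSeq (GRCm38.p6) lists a hairpin for all 5 genes at the GENCODE position and strand, with 8 mature entries. These are 7 different RNAs, since Mir219a-1 and Mir219a-2 carry the same miR-219a-5p. The table lists no 3p arm for Mir219a-2 or Mir3065. The seed is in capitals:
miR-219a-5p: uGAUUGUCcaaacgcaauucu
miR-219a-1-3p: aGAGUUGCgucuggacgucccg
miR-219b-5p: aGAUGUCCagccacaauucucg
miR-219b-3p: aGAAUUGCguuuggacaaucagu
miR-338-5p: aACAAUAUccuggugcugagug
miR-338-3p: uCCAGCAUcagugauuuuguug
miR-3065-5p: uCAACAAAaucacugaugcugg
The 7 seeds all differ, and no other arm among the 1738 mature entries of the table has any of them at bases 2 to 8. miR-219a-5p is the only arm here found in 2 hairpins on its own strand, and the other 6 arms each occur in 1. The hairpins of the minus-strand genes follow, with the listed mature arms in capitals, because they show where the miR-219a loci match and where they part:
Mir219a-1: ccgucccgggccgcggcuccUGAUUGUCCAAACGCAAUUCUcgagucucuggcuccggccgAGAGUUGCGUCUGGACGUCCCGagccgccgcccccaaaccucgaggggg
Mir219a-2: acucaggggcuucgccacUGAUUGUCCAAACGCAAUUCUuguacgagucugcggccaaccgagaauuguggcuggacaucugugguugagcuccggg
Mir338: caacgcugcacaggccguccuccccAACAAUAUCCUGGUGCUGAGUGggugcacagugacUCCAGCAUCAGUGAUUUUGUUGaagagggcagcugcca
Mir219a-1 and Mir219a-2 share an unbroken stretch of 22 bases, the 21 bases of miR-219a-5p and 1 base before it. A read that lies wholly inside this stretch has the same letters at both loci. Outside the stretch they diverge, with 63.2% identity over 114 aligned columns of the whole hairpins. miR-219a-1-3p differs at 7 of its 22 bases from the closest stretch of Mir219a-2 (bases 62 to 83). Mir338 shares no stretch of 15 bases or more with any other of the 1005 hairpins. Going by the layout of the count tables, a read that maps to several places is given to no gene. Reads wholly inside the shared stretch would then be absent from both miR-219a counts, while no such overlap with another listed hairpin was found for Mir338. Only these hairpins and, for the mature arms, GENCODE transcripts were searched. Matches elsewhere in the genome were not looked for.

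The 3 loci differ in their surroundings (mm10, GENCODE M21). Mir338 (ENSMUSG00000065600.1, chr11:120014765-120014862, minus strand) lies inside Aatk, a gene for a kinase of the nervous system that is read on the same strand. It is spanned by 6 Aatk transcripts and touches no exon of them, so it is intronic. Mir3065 (ENSMUSG00000105524.1, chr11:120014767-120014853, plus strand) lies wholly within the Mir338 span on the other strand. Mir219a-2 (ENSMUSG00000065485.1, chr2:29845631-29845727, minus strand) is intergenic, 629 bases from the end of Urm1, which codes for a ubiquitin-like protein on the other strand. Mir219b (ENSMUSG00000105010.1, chr2:29845647-29845711, plus strand) lies wholly opposite Mir219a-2. Mir219a-1 (ENSMUSG00000065555.1, chr17:34024983-34025092, minus strand) overlaps the single exon of the long noncoding RNA Gm26940 by 88 bases, 303 bases from the Polycomb gene Ring1. A further miRNA gene, Mir219c, lies opposite Mir219a-1.

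**Figure D1:**
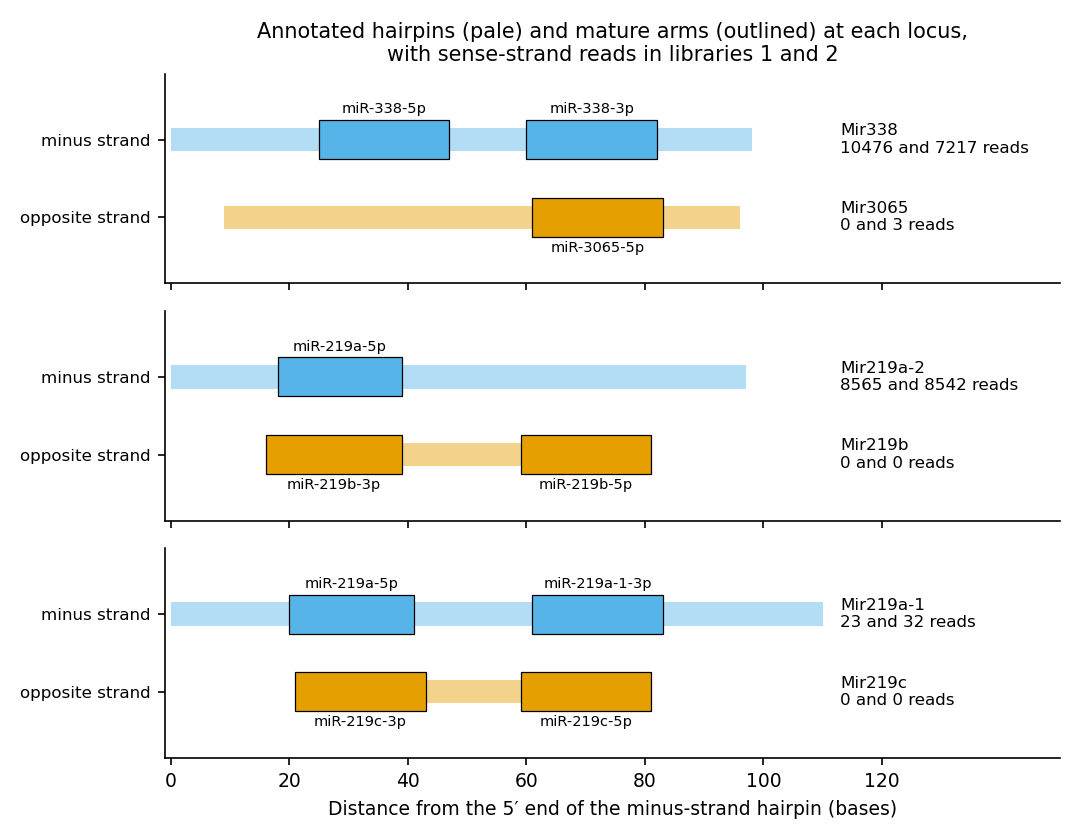
Map of the 3 loci, with the distance in bases from the 5′ end of the minus-strand hairpin on the x axis. Pale bars are hairpins, outlined bars are mature arms listed by RefSeq, and the numbers are sense-strand reads in library 1 and library 2, from 10476 and 7217 at Mir338 to 0 and 0 at Mir219b.

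Library 1 held 3827158 reads on the sense strand of miRNA genes and library 2 held 4553291, which are the denominators of the counts per 1000000 reads (CPM) below. Intervals are exact 95% intervals. They cover counting error only, and the labels name no molecular identifiers, so reads need not be independent molecules.

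Mir338 was the most abundant of the 5 genes in the mean. It had 10476 reads in library 1 and 7217 in library 2, or 2737 CPM (2685 to 2790) and 1585 CPM (1549 to 1622). Its mean was 2161 ± 815 CPM (SD, n = 2). It made up 0.274% and 0.159% of the sense-strand reads counted at miRNA genes, which leave out reads with several places. Library 1 was the higher, and the intervals did not overlap. Mir338 ranked 55th among all miRNA genes in library 1 and 70th in library 2.

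Mir219a-2 was close behind and steadier. It had 8565 and 8542 reads, nearly the same number from libraries of unequal depth, or 2238 CPM (2191 to 2286) in library 1 and 1876 CPM (1836 to 1916) in library 2. Its mean was 2057 ± 256 CPM (SD, n = 2), and it ranked 64th in each library. In the order of mean levels Mir31 alone stood between Mir338 and Mir219a-2, whose means differed by less than the spread between the libraries.

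Mir219a-1, the other source of miR-219a-5p, had 23 and 32 reads. These are 6.01 CPM (3.81 to 9.02) in library 1 and 7.03 CPM (4.81 to 9.92) in library 2, with a mean of 6.52 ± 0.720 CPM (SD, n = 2). The intervals overlapped almost wholly. The gene lay below 356 of the 406 miRNA genes called detected, that is, with 10 or more reads in both libraries. It was 1 of the 3 genes among the 5 that reached this minimum, with Mir338 and Mir219a-2.

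Mir3065 and Mir219b stayed below it. Mir3065 had 0 reads in library 1 and 3 in library 2, or 0.659 CPM (0.136 to 1.93) in the latter. Mir219b had 0 reads in both. A count of 0 allows up to 0.784 CPM in library 1 and 0.659 CPM in library 2, taken as 3 reads, so Mir3065 was at the limit of detection and Mir219b below it.

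**Figure D2:**
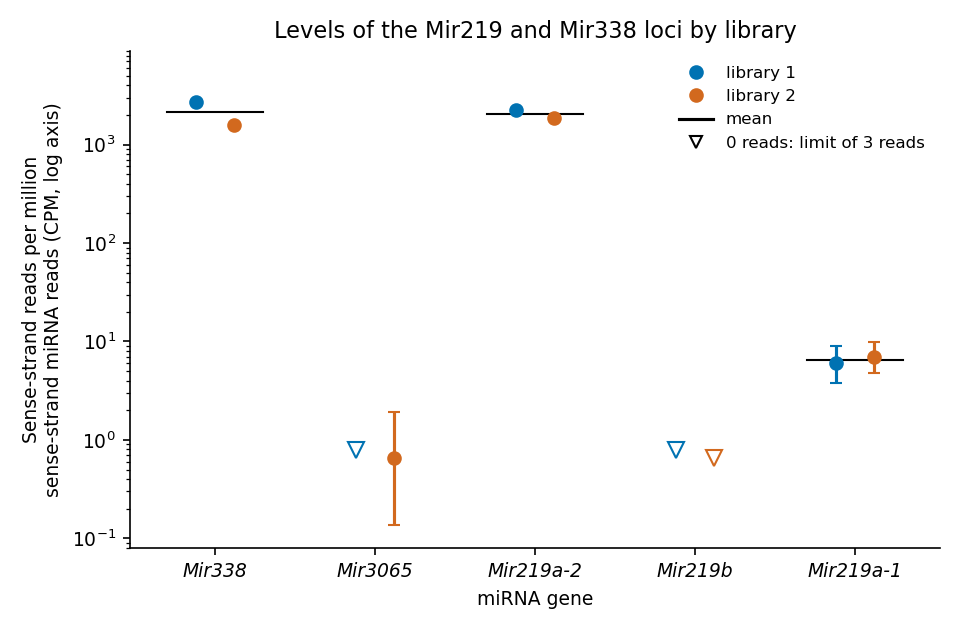
Level of each gene in CPM on a log axis, with exact 95% counting intervals, 1 point per library and a line at the mean of genes above 1 CPM. Mir338 and Mir219a-2 sit between 1585 and 2737 CPM, Mir219a-1 at 6.01 and 7.03 CPM, and triangles mark the limit of 3 reads for genes at 0.

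The copies of miR-219a were counted very unequally. Mir219a-2 had 372 times the reads of Mir219a-1 in library 1, with an interval of 248 to 588. In library 2 it had 267 times (189 to 391), for a mean ratio of 320 ± 74.6 (SD, n = 2). The ratio did not pass a two-sided Fisher's exact test between the libraries on the read counts (ratio of ratios 1.40, interval 0.79 to 2.50, p = 0.228). For scale, 37 pairs of miRNA genes in the RefSeq table share a mature arm of identical sequence found at 2 loci, and in 20 of them both genes were detected. The median ratio over these 20 pairs was 3.78 in library 1 and 3.19 in library 2. The miR-219a pair had the highest ratio in both, ahead of Mir181b-2 over Mir181b-1 at 98.7 and 105. The remaining 17 pairs had a gene below the minimum, and none held more than 104 reads at its higher locus. Families of 3 or more loci were not ranked. The counts are per gene, so which part of each hairpin the counted reads came from was not measured, nor how much of miR-219a-5p each locus gives.

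**Figure D3:**
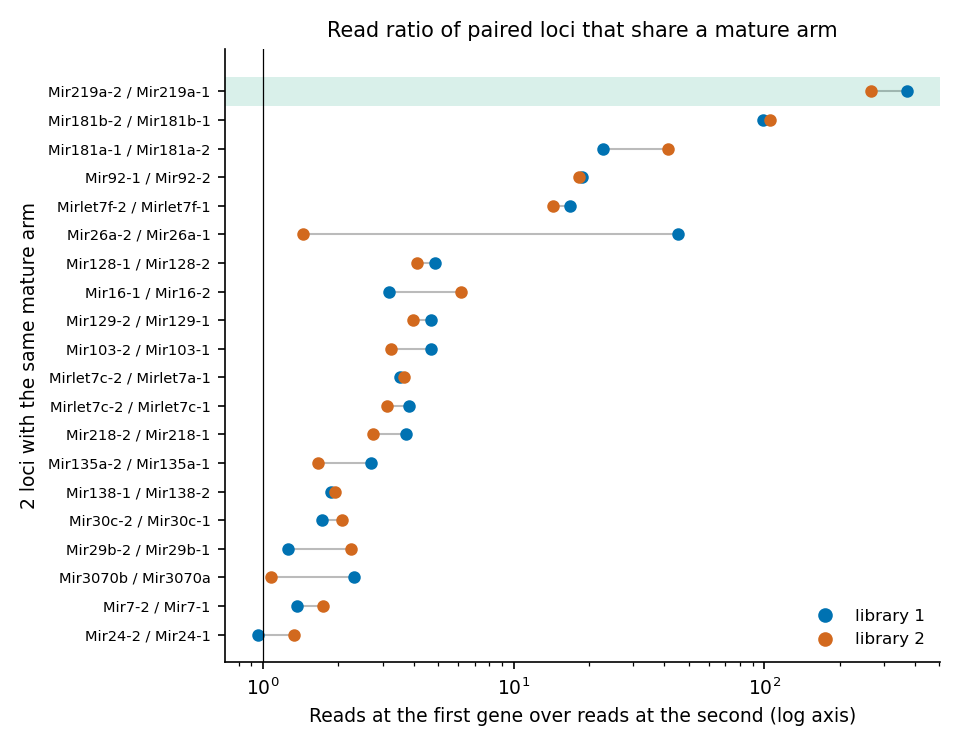
Read ratio, on a log axis, of the 20 pairs of loci that share a mature arm and were both detected, with 1 point per library. The shaded pair, Mir219a-2 over Mir219a-1, lies farthest right at 372 and 267.

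Nearly all reads at the 3 loci came from the minus strand. At the Mir338 and Mir3065 locus, all reads of library 1 lay on the Mir338 strand (100%, interval 99.965 to 100%). In library 2 the share was 99.958% (99.879 to 99.991%). At the Mir219a-2 and Mir219b locus, 100% lay on the Mir219a-2 strand in both libraries (lower bound 99.957%). All reads of Mir219a-1 also lay on its own strand, with none for Mir219c, but 23 and 32 reads only put the share above 85.2% and 89.1%. In the antisense column Mir219b had 8565 and 8542 reads, equal to the sense counts of Mir219a-2, and Mir3065 had 10476 and 7217, equal to those of Mir338. In the column that ignores strand Mir338, Mir3065, Mir219a-2 and Mir219b all stood at 0 in both libraries, and Mir219a-1 at 0 and 1. Strand-aware counting was therefore needed to see any of these genes, and it was used throughout.

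The mature arms face each other closely. miR-338-3p and miR-3065-5p, each of 22 bases, overlap by 21 bases on opposite strands. miR-219a-5p faces miR-219b-3p over all of its 21 bases. Over the bases shared by both annotated hairpins, the minus strand had the lower predicted folding energy at each locus. It was -25.2 against -18.8 kcal/mol over the 65 bases of Mir219b, -41.4 against -39 over the 87 of Mir3065, and -31.1 against -26.8 over the 60 of Mir219c. Mir219b folded weakly for a miRNA hairpin: per base, 912 of 1005 hairpins had a lower energy. The Mir219b entry starts and ends with its mature arms, unlike the longer Mir219a-2 entry, and the ranking was not matched for length.

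Reads from a single strand were common in such pairs. There were 26 overlapping opposite-strand pairs of miRNA genes whose stronger gene was detected, and 20 of them had no read on the weaker strand in either library. Mir338 with Mir3065 was among the 6 that had any, and 1 of the 26 reached 10 reads there in both libraries. The 3 pairs with the most reads had none on the weaker strand: Mirlet7e opposite Gm25927 (137692 and 157632 reads), Mir126a opposite Mir126b (30999 and 53842) and Mir191 opposite Gm24083 (36207 and 38668). The lowest share on the stronger strand over the 26 pairs was 87.8% in library 1 and 80.5% in library 2.

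**Figure D4:**
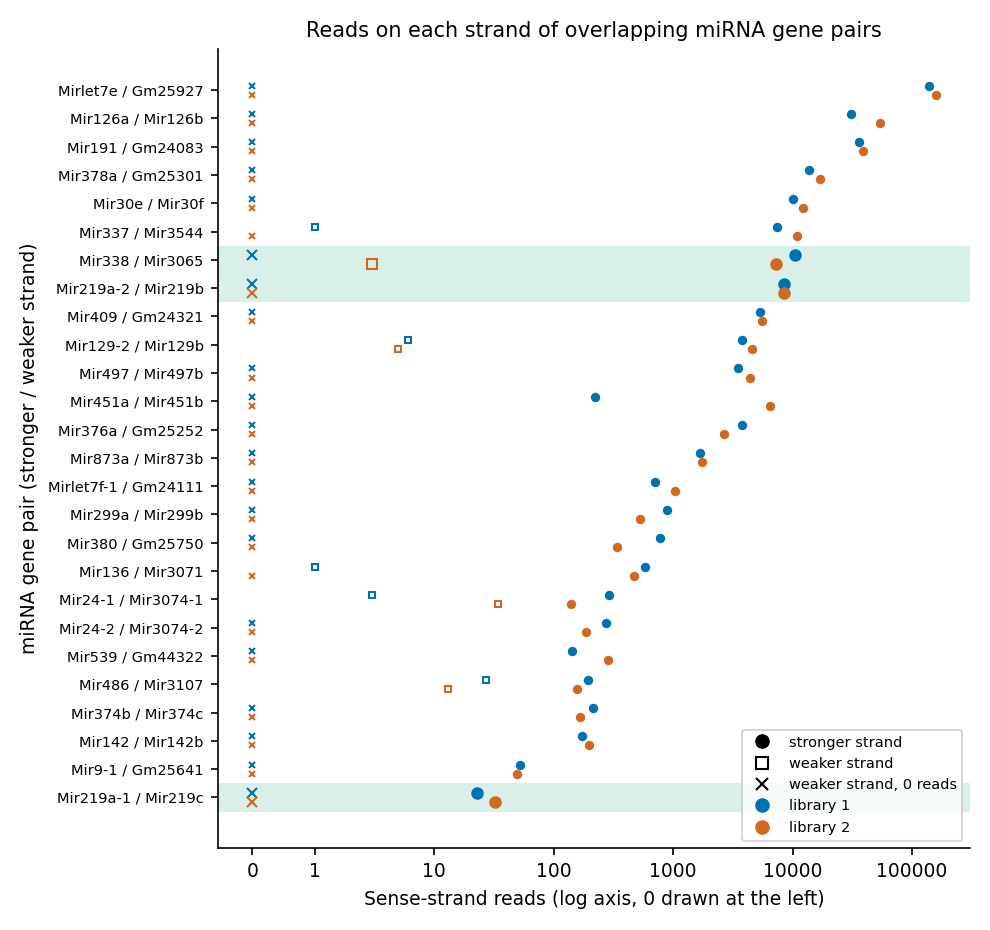
Sense-strand reads of the stronger and the weaker gene of 26 overlapping miRNA gene pairs, on a log axis with 0 drawn at the left and 1 symbol per library. The shaded pairs are Mir338 with Mir3065, Mir219a-2 with Mir219b and Mir219a-1 with Mir219c, and only Mir3065 of their weaker genes has a read (3, in library 2).

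Of the 3 detected genes, Mir338 and Mir219a-2 were higher in library 1 by a two-sided exact binomial test of the reads against the library sizes. Its p-values were adjusted over 508 genes by the Benjamini-Hochberg method. Mir338 was 1.73-fold higher (log2 ratio 0.79, interval 0.74 to 0.83, adjusted p = 4.61e-284). Mir219a-2 was 1.19-fold higher (log2 ratio 0.25, 0.21 to 0.30, adjusted p = 5.85e-30). Mir219a-1 did not pass (log2 ratio -0.23, -1.07 to 0.59, adjusted p = 0.69 by the exact binomial test). The test allows for counting error only, and it called 48.4% of all genes tested, 25.2% as higher in library 1 and 23.2% as higher in library 2. Among the 47 other genes within 2-fold of Mir338 in mean CPM it called 91.5%, and the share was the same around Mir219a-2. The 2 calls were thus near the background for genes of this depth. Around Mir219a-1 it called 14.4% of 97 genes. Of the 406 detected genes, 71 differed between the libraries by a larger factor than Mir338, and 256 by a larger factor than Mir219a-2. Of the 47 genes within 2-fold of Mir338 in mean CPM, 6 differed by a larger factor than Mir338, and their median was 1.25-fold. Of the 47 around Mir219a-2, 29 differed by a larger factor than Mir219a-2, with a median of 1.26-fold. The median difference of the detected genes was 1.28-fold.

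When the spread between the libraries was allowed for (exact test of edgeR with a common dispersion, a coefficient of variation of 33.3%), no call was made among the 3 genes. The unadjusted p was 0.246 for Mir338, 0.695 for Mir219a-2 and 0.84 for Mir219a-1, all with an adjusted p of 1. That test called 4 of 508 genes (0.787%), 25 at an unadjusted p under 0.05. Its dispersion comes from the same 2 libraries, so it is no replicated test.

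**Figure D5:**
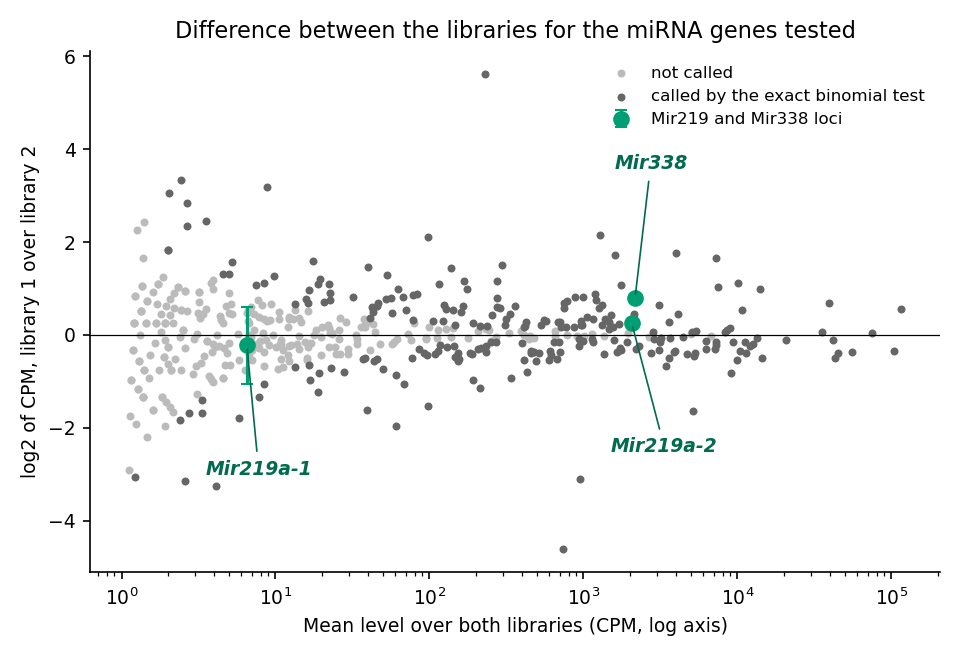
log2 of CPM in library 1 over library 2 against the mean CPM on a log axis, for 507 of the 508 genes tested (1 gene with no read in 1 library is left out). Green points with exact 95% intervals are Mir338 at 0.79, Mir219a-2 at 0.25 and Mir219a-1 at -0.23, within the cloud of the other genes.

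Mir338 and Mir219a-2 changed places between the libraries. Mir338 had 1.22 reads for each read of Mir219a-2 in library 1 (1.19 to 1.26) and 0.845 in library 2 (0.819 to 0.872). The ratio, which does not depend on the scaling, shifted 1.45-fold (1.39 to 1.51, two-sided Fisher's exact test p = 7.83e-66, counting error only). Set against Mir219a-2 in the same way, 60.2% of the 405 other detected genes passed the test after adjustment, and 157 of them shifted more than Mir338. Among the 47 within 2-fold of Mir219a-2 in mean CPM, 91.5% passed and 16 shifted more than Mir338, so this shift too was near the background for genes of this depth. In shares of the 3 detected genes, Mir338 supplied 55.0% of reads in library 1 and 45.7% in library 2, Mir219a-2 44.9% and 54.1%, and Mir219a-1 0.121% and 0.203%.

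The genes with the most similar levels in the 2 libraries were found by the distance in log2 CPM among detected genes. Nearest to Mir338 was Mir128-2 (distance 0.07, 2859 and 1559 CPM), followed by Mir31 (0.24) and Mir219a-2 (0.38). Mir337 (2181 CPM) stood just above it in the mean and Mir31 (2123 CPM) just below. Nearest to Mir219a-2 were Mir31 (0.15, 2452 and 1794 CPM), Mir7b (0.19, 1962 and 1906 CPM) and Mir708 (0.32), with Mir31 also just above it and Mir7b just below. Nearest to Mir219a-1 were Mir7240 (0.09), Mir7031 (0.13) and Mir103-1 (0.14), between Mir5132 at 6.53 CPM and Mir6912 at 6.30 CPM in the mean. With 2 libraries, such likeness describes levels only.

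Other miRNAs described in the oligodendrocyte lineage were taken as a list of 24 genes that includes Mir338, Mir219a-2 and Mir219a-1. In it 21 genes were detected, and Mir19a and Mir19b-1 had no read. Of 22 tested, 7 were higher in library 1, 8 in library 2 and 7 did not pass the binomial test, beside 25.2% and 23.2% of all genes tested that were called in each direction. The median log2 ratio was -0.02, beside 0.00 over all genes tested, and the median log2 CPM was 7.65 beside 4.93. Mir338 and Mir219a-2 were 6th and 7th in it by mean CPM. Above them stood Mir23b at 20652 ± 1176 CPM, Mir125a at 13905 ± 6485 CPM and Mir23a at 9101 ± 3556 CPM (SD, n = 2). Mir23a is known to repress the lamin gene Lmnb1, whose excess harms myelin. Mir138-1 at 5240 ± 1140 CPM and Mir138-2 at 2756 ± 530 CPM completed the 5, and these carry miR-138, which is induced with miR-219 and miR-338 in differentiating oligodendrocytes. Mir338, Mir219a-2 and Mir125a (18491 and 9319 CPM) were higher in library 1, while Mir23a (6587 and 11615 CPM), Mir138-1 (4434 and 6046 CPM), Mir138-2 (2381 and 3132 CPM) and Mir23b (19820 and 21483 CPM) were higher in library 2. These miRNAs also occur in other cells of the cortex, and some also stand in the marker lists below: Mir212, the Mir138 genes and the Mir9 genes in the neuron list, Mir146 in the microglia and leukocyte list and Mir145a in the vessel list. Mir19b-1 shares a mature arm with another locus that also had no read, and the Mir138 genes share an arm with each other. So do Mir7-1 and Mir7-2, and Mir92-1 shares an arm with Mir92-2. Only arms found at 2 loci were listed, so larger families such as the Mir9 genes were not covered. Reads inside a shared arm would be given to no gene, so the counts of such genes may leave them out.

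Marker lists of the other cell types of cortex also differed between the libraries. The 3 oligodendrocyte genes summed to 4981 CPM in library 1 and 3468 CPM in library 2, which is 1.44-fold higher in library 1. The 13 neuron genes summed to 78411 and 53206 CPM (1.47-fold higher in library 1), led by Mir132 at 48515 and 30152 CPM, and 10 of them were detected. Of 11 neuron genes tested, 5 were called higher in library 1 and 2 in library 2, beside 48.4% of all genes called in either direction. The 4 astrocyte genes of the miR-29 family summed to 14342 and 9860 CPM (1.45-fold), led by Mir29a at 12547 and 8703 CPM, and 3 of the 4 were called higher in library 1. The 5 microglia and leukocyte genes summed to 2164 and 1751 CPM (1.24-fold), led by Mir150 at 1291 and 1020 CPM, and 3 of the 5 were called higher in library 1. Beside these astrocyte and microglia counts, 25.2% of all genes tested were called higher in library 1. Among the 47 genes within 2-fold of Mir338 in mean CPM, 23 were. The sum of the 3 vessel genes was lower in library 1, at 14355 and 18575 CPM, led by Mir126a at 8100 and 11825 CPM, although Mir145a (254 and 221 CPM) was called higher there. So was that of the 3 red blood cell genes, at 134 and 1549 CPM, led by Mir451a at 58.3 and 1419 CPM, with Mir486 (51.0 and 34.7 CPM) called higher in library 1. No gene of these lists was at 0 in both libraries, although the 3 Mir124a genes, which carry the best-known neuronal miRNA, had 1 to 18 reads each. Reads that fit several loci, as those of an arm shared by these 3 genes would, appear to be given to no gene. The Mir124a counts and the neuron sum need not follow the level of that miRNA. The Mir128 genes of the neuron list also share a mature arm with each other, as do Mir29b-1 and Mir29b-2 of the astrocyte list. Their counts carry the same limit. The sums follow their most abundant genes. The median log2 ratios of the tested genes were further apart, at 0.25 for oligodendrocytes, 0.09 for neurons and 0.59 for astrocytes. They were 0.28 for microglia and leukocytes, -0.12 for vessels and -1.97 for red blood cells. The part of cell makeup in the difference of Mir338 and Mir219a-2 was not tested.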

How the data were processed

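For each library the authors deposited raw counts of reads per miRNA gene, as 1 column ignoring strand and 1 for each strand. The labels and processing notes of the submitters name mm10 and GENCODE M21. Aligner and trimming: not given in the sources used here. The 4 tally rows match the layout of STAR's output, where a read with several places counts for no gene, and that handling is read from the layout alone. They entered neither library sizes nor tests. Of all reads, 19.6% and 18.9% were unmapped, 41.7% and 41.1% had several places and 5.03% and 4.94% fell outside miRNA genes. Reads of the CAST/EiJ allele that differ from mm10 may have been lost.

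The sense column is the stranded column with the larger gene total. All 2202 identifiers matched GENCODE M21. Genes with 10 or more reads in total were tested (exact binomial, Benjamini-Hochberg at 0.05), with edgeR 4.0.16 (R 4.3.3) and DESeq2 1.42.0 size factors as alternatives, and scipy 1.17.1 for exact tests and intervals. List medians used log2 of CPM with a pseudocount of 1 CPM. Folding used ViennaRNA 2.7.2. The binomial test was tried on simulated counts with counting error only, so that trial says nothing of spread between the libraries. Alternatives were counting without strand, other denominators, scalings and count minimums, and 1 library at a time.

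The genes and lists were chosen with earlier results of these data known. Besides the 5 genes, those named are the nearest 3 in log2 CPM and the rank neighbours of each detected one, the lineage genes above Mir219a-2, the highest gene of each marker list and the 3 opposite-strand pairs with the most reads. Mir219c, Mir19a, Mir19b-1, the Mir124a genes, Mir486, the genes in several lists and the Mir181b pair were named after their values were seen. So were the Mir7, Mir92, Mir128 and Mir29b genes named for a shared arm. The quasi-likelihood test could not be fitted to 1 group, and arms and alleles were not analysed here.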

Additional observations from a re-analysis of the deposited data

Results flagged for a closer look

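Many reads lay outside the gene counts, far above the limit set by a count of 0. Those with several places, where a read of the shared miR-219a-5p would fall, were 41.7% of all reads in library 1 and 41.1% in library 2. Those with 1 place but in no miRNA gene were 5.03% and 4.94%. The tallies do not say which miRNAs they hold, and the share of miR-219a-5p in them was not measured.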

How the results depend on the processing

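With the column that ignores strand, reads over a pair of opposite genes go to an ambiguous tally (277760 and 335196 reads). Mir338 and Mir219a-2 then fell to 0 CPM and Mir219a-1 to 0.119 CPM, so neither the tests nor the ratios of these genes could be run there. The counts fell to 0 in the same way at the stronger gene of 22 of 26 opposite-strand pairs. Per 1000000 of all reads the means were 739 CPM for Mir338, 706 for Mir219a-2 and 2.24 for Mir219a-1. Per 1000000 uniquely mapped reads, Mir219a-2 stood at 1796 and Mir219a-1 at 5.69. These shifts follow from the larger denominators. With edgeR's exact test the calls of Mir338 (log2 ratio 0.80) and Mir219a-2 (0.27) were lost, leaving 0 of 3 genes and 4 of 508 genes called. Over 6 alternatives the log2 ratio lay between 0.73 and 0.80 for Mir338, 0.19 and 0.27 for Mir219a-2, and -0.29 and -0.21 for Mir219a-1. The changed count minimums could not move these ratios, and the other alternatives rescale the same counts. Without each library in turn, the level was 1585 to 2737 CPM for Mir338, 1876 to 2238 for Mir219a-2 and 6.01 to 7.03 for Mir219a-1. The ratio of Mir338 to Mir219a-2, 1.03 in the mean, was 0.845 to 1.22, so which of the genes was the more abundant reversed without library 1. The ratio of Mir219a-2 to Mir219a-1 was 267 to 372. In all, 54 of 66 alternative values kept their side of the threshold or moved by less than the spread, and no log2 ratio between the libraries changed sign. With 2 libraries, leaving out 1 always moves a mean by less than their SD. The values without each library therefore counted as kept whatever the data, and the tally says little of stability. No paired analysis was possible because the series has 1 group. With 55 reads in all, the depth limits what can be said of Mir219a-1.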
